A study of Mus musculus with 19 samples.

Results

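The genes described here are those of the mouse mitochondrial genome, whose symbols start with mt-, and the nuclear genes for proteins of the mitochondrial ribosome, which are protein-coding genes with a symbol that starts with Mrpl or Mrps and a digit. By this rule 104 of the 27299 genes of the table were members, 26 mt- genes and 78 *Mrpl* and *Mrps* genes. The 26 mt- genes comprised 10 protein-coding genes, the 2 ribosomal RNA (rRNA) genes and 14 transfer RNA (tRNA) genes. The 78 nuclear genes comprised 49 *Mrpl* genes, named for the large subunit, and 29 *Mrps* genes, named for the small subunit. The symbol decided membership, and the role of each protein was not checked. No measured value entered the rule.

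Retinal microglia, the resident macrophages of the retina, were compared between mice 3 days after laser treatment (CNV d3, n = 6) and unlasered mice (control, n = 6). The laser breaks the layer below the retina and starts choroidal neovascularization (CNV), the growth of vessels from the choroid, and 6 burns had been set in each lasered eye. All mice were 8 weeks old. The labels give their strain as C57BL/6J, while the methods of the study name Cx3cr1 GFP/+ mice, in which 1 copy of the receptor gene is replaced by a fluorescent reporter in both groups. The cells of both groups had been sorted as positive for CD11b and CX3CR1 and negative for Ly6C and Ly6G. For CD45 the labels say positive and the methods say low. How many mice went into a sample is not given in the sources used here, so the p-values measure the spread between these samples. The libraries were made from total RNA with a kit that copies polyadenylated RNA.

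The mitochondrial genome is a small circle that codes for core subunits of the respiratory chain and for the rRNAs and tRNAs that translate them. It is transcribed as long RNAs, from which the tRNAs are cut out and so release the messenger RNAs (mRNAs) and rRNAs between them. The proteins of the mitochondrial ribosome are all made from nuclear genes in the cytosol and are imported, so that a working ribosome joins products of both genomes.

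Between 10963178 and 22335233 reads lay on genes in control samples (median 20637354.5) and 23532260 to 29523018 in CNV d3 samples (median 25872622.5). Levels are given as normalized counts, that is, reads scaled by a size factor for the depth of each sample. All 12 marker genes of microglia had reads, and their summed level was 1505380 to 1666712 in control and 847857 to 1257202 in CNV d3. The summed level of 7 monocyte markers was 42.2 to 319.8 in control and 565 to 2872 in CNV d3, and that of 6 genes of cell division was 88.3 to 878 and 6591 to 16850. Neither sum overlapped between the groups. The 12 markers of rods and cones summed to 860 to 7622 and to 654 to 13537, with the highest values in control replicate 3 and CNV d3 replicates 4 and 6. Markers of neutrophils (3 of 5 in the table, without *Ly6g* and *Elane*) stayed at or under 22.3 and those of red blood cells (4 of 5) at or under 15.2. Whether these other cells took part in the results below was not tested. In such bulk samples, fewer cells of a type and less RNA per cell cannot be told apart.

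The read length of 50 bases decides which mt- genes can be measured, because parts of the mitochondrial genome are also present as copies in the nuclear genome and a read that maps to both is not counted. Each mt- gene was therefore cut into all windows of 50 bases, and each window was looked for in the other transcripts of Gencode M21. Of the windows of *mt-Co3*, 99.9% were identical to a nuclear copy. The share was 99.5% for *mt-Atp6*, 98.0% for *mt-Nd3*, 62.2% for *mt-Nd4* and 51.1% for *mt-Co1*. It was 8.19% for *mt-Nd2*, 7.61% for *mt-Nd5* and 1.04% for *mt-Rnr2*. No window of *mt-Rnr1*, *mt-Nd1*, *mt-Nd6* or *mt-Cytb* was shared. Only annotated transcripts were searched, so these shares are lower limits.

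**Figure D1:**
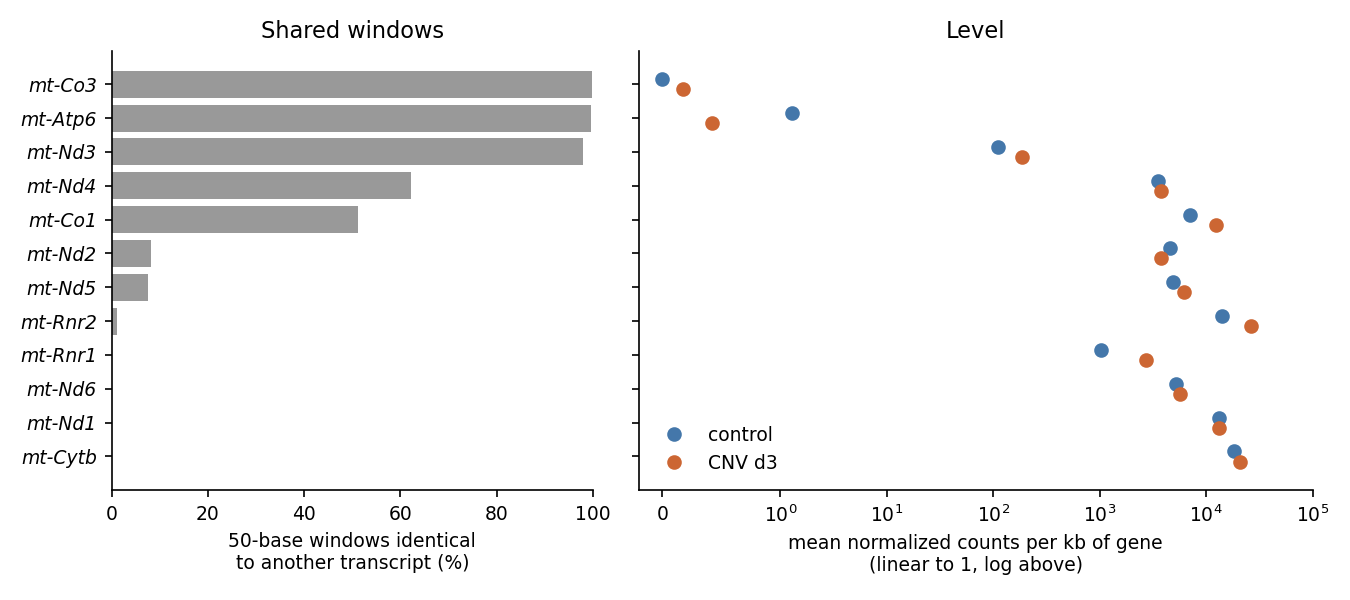
Share of 50-base windows of each mt- protein-coding and rRNA gene that were identical to another annotated transcript (left, %), and mean level of the gene per kb in control and CNV d3 (right, normalized counts per kb, linear to 1 and logarithmic above, n = 6 each). The 3 genes with almost every window shared, *mt-Co3*, *mt-Atp6* and *mt-Nd3*, had the lowest levels, at most 187 normalized counts per kb.

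Most of the shared windows lay in 7 pseudogenes that sit next to each other on the minus strand of chromosome 1 (GRCm38), from *Gm28439* at 24611535 to *Gm29216* at 24616197. They follow the order of *mt-Nd4*, *mt-Nd4l*, *mt-Nd3*, *mt-Co3*, *mt-Atp6*, *mt-Co2* and *mt-Co1*. The gap of 233 bases between *Gm10925* and *Gm28661* is close to the 230 bases between *mt-Co2* and *mt-Atp6*, where *mt-Atp8* lies. The copies of *mt-Nd4*, *mt-Nd4l*, *mt-Co3*, *mt-Atp6* and *mt-Co2* did not differ from the mt- genes at any position over their annotated length. The copy of *mt-Nd3*, *Gm28438*, differed at 1 position, T3C counted from the 5′ end of *mt-Nd3*. That base lies in the unshared windows at the 5′ end of *mt-Nd3* and is the only difference over the annotated length of the copy. The copy is annotated with 345 bases and *mt-Nd3* with 348, and the other unshared windows run past the end of the copy. The first 50 bases of both are given (the capital marks the base, sequences from Gencode M21, *mt-Nd3* at chrM:9459-9508 on the plus strand, *Gm28438* at chr1:24613070-24613119 on the minus strand).
mt-Nd3: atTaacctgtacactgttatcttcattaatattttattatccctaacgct
Gm28438: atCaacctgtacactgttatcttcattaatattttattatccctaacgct
*mt-Nd3* was measured at 20.1, 37.7 and 60.8 normalized counts (lowest, median and highest) in control and 52.8, 61.9 and 88.9 in CNV d3. Its level per unshared window, of which it had only 6, was 6.42 in control. This lay between that of *mt-Nd5* (5.47) and that of *mt-Nd4* (9.66). *mt-Co3* had 0.831 normalized counts in CNV d3 replicate 6 and was listed at 0 in the other 11 samples. *mt-Atp6* was at or under 3.22 normalized counts in all samples, so that no fold change is given for these genes. *mt-Co2*, *mt-Atp8*, *mt-Nd4l* and 8 of the 22 mt- tRNA genes are not in the table and were not analysed here.

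Of the reads on genes, mt- genes took 0.318% to 0.459% in control (median 0.430%) and 0.451% to 0.739% in CNV d3 (median 0.566%). The groups overlapped, since CNV d3 replicate 4 lay at 0.451% and control replicate 1 at 0.459%. The share of the 2 rRNA genes was 0.0748% to 0.139% in control and 0.144% to 0.312% in CNV d3 and did not overlap. The mRNA genes took 0.243% to 0.329% and 0.288% to 0.426%, with overlap. Without all rRNA genes, nuclear and mitochondrial, the share of the mt- genes was 0.301% ± 0.0345 (SD, n = 6) in control and 0.370% ± 0.0542 in CNV d3.

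**Figure D2:**
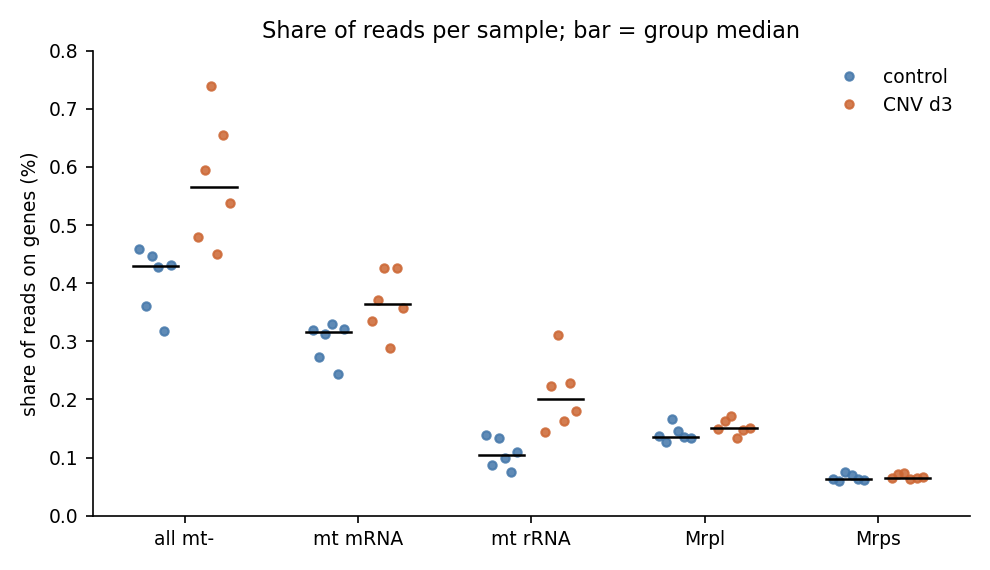
Share of the reads on genes (%) taken by all mt- genes, mt- mRNA genes, mt- rRNA genes, *Mrpl* genes and *Mrps* genes in each sample (points, n = 6 per group), with the group medians as bars. The groups are apart for the mt- rRNA genes and overlap for the other sums.

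In CNV d3, 4 of the 26 mt- genes rose and none fell. A gene passed the test at a Benjamini-Hochberg adjusted p under 0.05 from limma, fitted to all genes on the scale of log2(normalized counts + 1), and fold changes are given on that scale. Among all 27299 genes 8.29% rose and 4.57% fell. At an unadjusted p under 0.05, 5 mt- genes were higher and 2 lower, beside 4462 and 2430 of all 27299 genes. Among the adjusted calls edgeR had 0 and DESeq2 1 that fell, beside 1181 and 2170 of all genes. The median log2 fold change was 0.14 over the 8 mt- mRNA genes with a mean of at least 10 normalized counts and 0.15 over the 11628 protein-coding genes of that level.

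The genes that rose included both rRNA genes. *mt-Rnr1*, the 12S rRNA of the small subunit (chrM:70-1024), was at 738, 949 and 1287 normalized counts in control and at 1810, 2558 and 3554 in CNV d3. All CNV d3 samples were above all control samples, the mean was 2.65-fold higher and the log2 fold change was 1.42 (SE 0.18, limma adjusted p = 0.000179). *mt-Rnr2*, the 16S rRNA of the large subunit (chrM:1094-2675), was at 16026, 21739 and 28583 in control and at 29717, 40892 and 62073 in CNV d3, again without overlap. Its log2 fold change was 0.90 (SE 0.18, limma adjusted p = 0.00392). *mt-Rnr1* had 3.70 to 4.98 reads per 100 *mt-Rnr2* reads in control and 5.73 to 7.49 in CNV d3, so the ratio within a sample did not overlap either. A nuclear rRNA gene, *CT010467.1*, moved with them, from 13758, 20560 and 38582 normalized counts to 45161, 66813 and 79323. Its part in the result was not tested. The kit copies polyadenylated RNA, so these counts describe the rRNA that was captured. The amount of rRNA in the cells was not measured.

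*mt-Co1* (chrM:5328-6872), the catalytic subunit of cytochrome c oxidase (complex IV), was the mRNA gene with the smallest adjusted p. It was at 8617, 11516 and 12382 normalized counts in control and at 14246, 18890 and 23324 in CNV d3. The groups did not overlap, the mean was 1.75-fold higher and the log2 fold change was 0.80 (SE 0.12, limma adjusted p = 0.000616). Windows of this gene were shared in part with nuclear copies, and the pseudogene with the most reads among these, *Gm13340*, had a mean of 9.80 normalized counts in control and 10.4 in CNV d3. *mt-Co1* took 14.7% to 18.0% of the reads on mt- mRNA genes in control and 23.2% to 25.5% in CNV d3. The genes for the other subunits of complex IV in this genome, *mt-Co2* and *mt-Co3*, gave no value to set beside it.

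Of the genes for subunits of complex I, NADH dehydrogenase, *mt-Nd5* passed the test and 5 did not. *mt-Nd1* (chrM:2751-3707) was at 10321, 12855 and 14093 in control and at 9534, 12416 and 15205 in CNV d3, with a log2 fold change of 0.01 (SE 0.11, limma adjusted p = 0.963). *mt-Nd2* (chrM:3914-4951) was at 4049, 4625 and 5645 in control and at 3061, 3749 and 4661 in CNV d3 (log2 fold change -0.29, SE 0.12, limma adjusted p = 0.124). Both groups overlapped in each of these genes. As shares of the reads on mt- mRNA genes the groups were apart, with 17.9% to 19.7% in control and 14.8% to 17.8% in CNV d3 for *mt-Nd1*, and 6.38% to 8.16% and 4.61% to 5.19% for *mt-Nd2*. *mt-Nd4* also took a lower share in CNV d3 (7.11% to 7.84% against 6.34% to 7.02%), while its level had a log2 fold change of 0.10 (SE 0.12). The shares of a sample add up to the whole, so a higher share of *mt-Co1* by itself lowers those of the other genes.

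*mt-Nd5* passed the test with a small change. It was at 6769, 8868 and 11584 in control and at 9773, 11790 and 12499 in CNV d3, the groups overlapped, and the log2 fold change was 0.37 (SE 0.11, limma adjusted p = 0.0445). The call was lost in 10 of the 12 fits that left out 1 sample. Only the fits without control replicate 6 and without CNV d3 replicate 4 kept it. *mt-Nd6*, the 1 protein-coding gene on the other strand, whose end overlaps that of *mt-Nd5*, had a log2 fold change of 0.12 (SE 0.13, limma adjusted p = 0.600). The counting did not use strand, so reads of a transcript that runs through *mt-Nd6* on the opposite strand cannot be told apart from its own. *mt-Nd3* had a log2 fold change of 0.84 (SE 0.42, limma adjusted p = 0.233).

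*mt-Cytb* (chrM:14145-15288), which codes for cytochrome b of complex III, had the highest level per unshared window of the mRNA genes in control. It was at 16853, 21507 and 23390 normalized counts in control and at 18622, 24019 and 27169 in CNV d3. The groups overlapped and the log2 fold change was 0.17 (SE 0.10, limma adjusted p = 0.332). Per unshared window, *mt-Cytb* had a mean of 19.1 in control and 21.5 in CNV d3, while *mt-Co1* had 14.9 and 26.1. By this measure the order of the means was *mt-Cytb*, *mt-Co1*, *mt-Nd1* in control and *mt-Co1*, *mt-Cytb*, *mt-Nd1* in CNV d3. The next genes in control were *mt-Nd4*, *mt-Nd3*, *mt-Nd6*, *mt-Nd5* and *mt-Nd2*, the last of these at 5.22. *mt-Atp6* and *mt-Co3*, with 2 and 1 unshared windows, had 0.436 and 0 and are not placed in this order. Their windows count as unshared only because the annotated copies end earlier, so reads there may still map to both places. The place of *mt-Nd3* rests on 6 unshared windows, of which some are of this kind. That of *mt-Nd6* can include reads of the other strand, since the counting did not use strand.

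**Figure D3:**
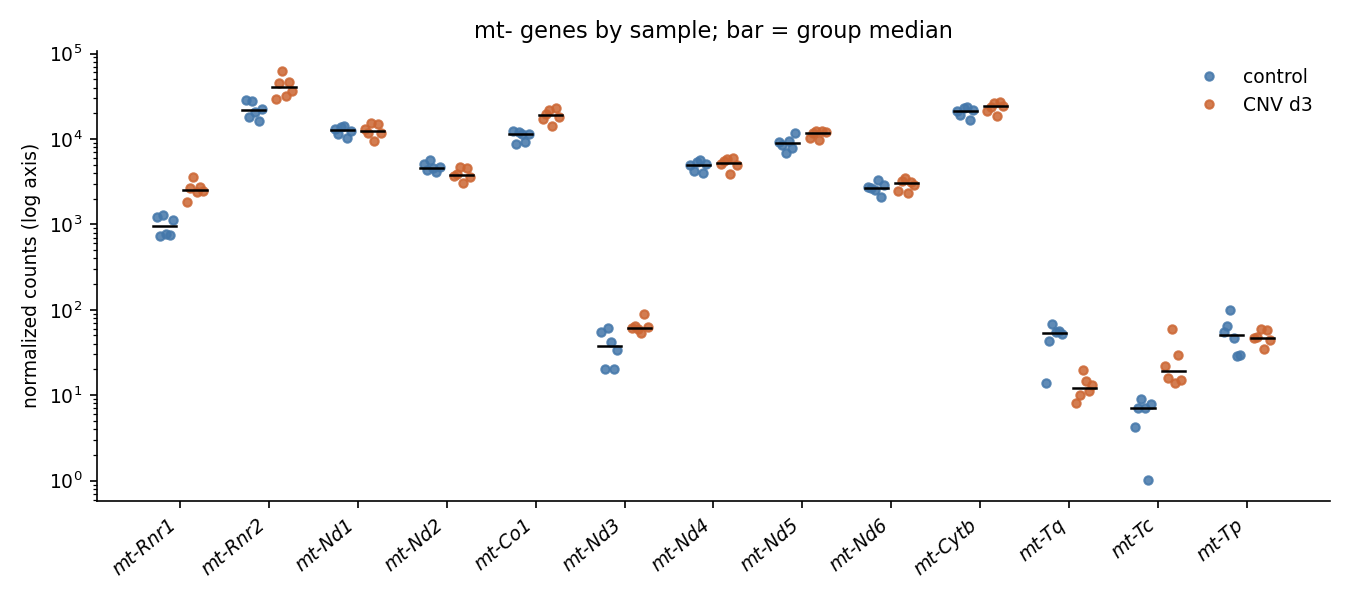
Normalized counts (logarithmic axis) of 13 mt- genes in each control and CNV d3 sample (points, n = 6 per group), with the group medians as bars. The groups are apart for *mt-Rnr1*, *mt-Rnr2*, *mt-Co1* and *mt-Tc*, and overlap for the other genes shown.

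The groups did not overlap for 4 mt- genes, all higher in CNV d3, against 4.64% of all genes that were apart in this direction and 2.83% in the other. The fourth was a tRNA gene, *mt-Tc* for tRNA-Cys. Of the 14 tRNA genes in the table, 11 had a mean under 10 normalized counts in both groups, with no sample above 17.3. The remaining 3 were *mt-Tq* for tRNA-Gln, *mt-Tc* and *mt-Tp* for tRNA-Pro. All 3 are read from the strand opposite to that of most mt- genes, and the counting did not use strand, so reads of the long transcript of the other strand cannot be told apart. The sequences of the tRNA genes that differed most are given with the anticodon in capitals (Gencode M21, *mt-Tq* at chrM:3772-3842 and *mt-Tc* at chrM:5192-5257, both on the minus strand).
mt-Tq: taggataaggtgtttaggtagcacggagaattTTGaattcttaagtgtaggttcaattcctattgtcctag
mt-Tc: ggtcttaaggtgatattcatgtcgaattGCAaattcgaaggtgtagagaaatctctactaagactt

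*mt-Tq* was at 14.0, 53.2 and 67.6 normalized counts in control and at 8.13, 12.3 and 19.7 in CNV d3. Control replicate 1, at 14.0, was the only control sample within the range of CNV d3. The log2 fold change was -1.73 (SE 0.56), with a limma adjusted p of 0.0572. Without control replicate 1 the adjusted p fell below the threshold, as it did in 8 other fits without 1 sample. *mt-Tc* had values of 1.00, 7.10 and 9.01 in control and 13.8, 19.0 and 59.1 in CNV d3, with a log2 fold change of 1.90 (SE 0.70, limma adjusted p = 0.0918). The 2 genes thus had changes of opposite sign that did not pass the test. *mt-Tp* lay at 29.1, 50.7 and 99.1 in control and at 34.6, 47.1 and 59.1 in CNV d3 (log2 fold change -0.04, SE 0.42).

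Among the 78 *Mrpl* and *Mrps* genes, 4 rose and 1 fell. Among the 16070 protein-coding genes 12.7% rose and 6.04% fell. At an unadjusted p under 0.05, 12 were higher and 6 lower, beside 3696 and 1802 of the protein-coding genes. DESeq2 called 10 that rose and 6 that fell, beside 2344 and 1594 of the protein-coding genes. edgeR called 4 and 0, beside 1828 and 931. After a filter on low values limma called 8 and 3, beside 2160 and 1544 of the 12753 genes left. The number that rose was 9 without control replicate 3 and 7 without control replicate 4. The number that fell was 5 without control replicate 2 and 2 without control replicate 1, 4, 5 or 6. The median log2 fold change was 0.08, or 0.13 over the *Mrpl* genes and -0.002 over the *Mrps* genes. No member was a DEG by the threshold of the study, an adjusted p under 0.05 and an absolute log2 fold change above 1.5, against 4.99% of all genes. This held with edgeR, while DESeq2 called *mt-Tq* and *mt-Tc*. So did limma after the filter on low values or without a variance trend. When 1 sample was left out, 0 to 3 members were DEG. At an unadjusted p under 0.05, 17 of the 104 members were higher and 8 lower, beside 4462 and 2430 of all 27299 genes.

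*Mrpl28*, which codes for a protein of the large subunit (chr17:26123500-26126613), had the largest change of the nuclear members. It was at 331, 393 and 587 normalized counts in control and at 775, 955 and 1082 in CNV d3. The groups did not overlap, the mean was 2.19-fold higher and the log2 fold change was 1.16 (SE 0.17, limma adjusted p = 0.000398). *Mrps15*, which codes for a protein of the small subunit (chr4:126046925-126055532), was at 674, 841 and 1026 in control and at 1237, 1544 and 1812 in CNV d3. It rose 1.81-fold without overlap of the groups (log2 fold change 0.85, SE 0.14, limma adjusted p = 0.000775). In the two-sided exact permutation test both genes, like *mt-Rnr1*, *mt-Rnr2*, *mt-Co1*, *Mrps5* and *mt-Tc*, reached p = 0.00216, the smallest p that 6 against 6 samples allow. *Mrps5* and *mt-Tc* did not pass with limma.

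The other genes that rose were *Mrpl33* and *Mrpl24*, both of the large subunit. *Mrpl33* was at 327, 397 and 610 in control and at 534, 622 and 720 in CNV d3 (log2 fold change 0.59, SE 0.17, limma adjusted p = 0.0314). *Mrpl24* was at 282, 348 and 489 in control and at 463, 526 and 560 in CNV d3 (log2 fold change 0.55, SE 0.16, limma adjusted p = 0.0355). Their groups overlapped. The call of *Mrpl33* was lost without CNV d3 replicate 3 or 6, and that of *Mrpl24* with edgeR and in the fit with the replicate number as a block. Each has exons that overlap another annotated gene, *Gm43809* and *Rrnad1*, as had 33 of the 78 genes, and reads in such places are not counted or cannot be told apart. *Mrpl42* was near the threshold, at 815, 953 and 1184 in control and 1078, 1321 and 1510 in CNV d3 (log2 fold change 0.42, SE 0.13, limma adjusted p = 0.0507).

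*Mrps18b* fell. It codes for 1 of the 3 S18 proteins of the small subunit and was at 311, 435 and 456 in control and at 198, 244 and 355 in CNV d3. The log2 fold change was -0.71 (SE 0.19, limma adjusted p = 0.0215), and the call was lost with edgeR, with this block and without the 3 samples with the most photoreceptor reads. Its exons overlap those of *Gm16279*. The genes for the other S18 proteins, named after their values were seen, did not pass the test. *Mrps18a* had 400, 529 and 950 in control and 621, 642 and 717 in CNV d3 (log2 fold change 0.20, SE 0.21), and *Mrps18c* had a log2 fold change of 0.17 (SE 0.16).

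*Mrps5*, which codes for another protein of the small subunit, was the 1 nuclear member whose groups were apart with lower values in CNV d3. It was at 451, 527 and 930 in control and at 318, 380 and 421 in CNV d3 (log2 fold change -0.57, SE 0.18, limma adjusted p = 0.0577). The highest of these values came from control replicate 4. *Mrps5* passed the test without this sample and also without control replicate 1 or 6. Among the members with lower means, *Mrps2* (log2 fold change -0.42), *Mrps31* (-0.51), *Mrpl32* (-0.40) and *Mrpl47* (-0.63) did not pass, with limma adjusted p of 0.0786, 0.0966, 0.0980 and 0.103.

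Of the 78 genes, 77 had a mean of at least 10 normalized counts. *Mrpl53* had a mean of 0.838 normalized counts in control and no sample above 4.02, and the next lowest was *Mrps36* with 99.1. The highest was *Mrpl17* with 1320, 1499 and 1764 in control and 1202, 1359 and 1655 in CNV d3 (log2 fold change -0.12, SE 0.12). *Mrps14* and *Mrpl15*, also among the highest, had log2 fold changes of 0.11 (SE 0.13) and -0.14 (SE 0.15). Together the *Mrpl* genes took 0.127% to 0.166% of the reads in control and 0.134% to 0.171% in CNV d3, and the *Mrps* genes 0.0601% to 0.0750% and 0.0627% to 0.0733%. There were 45.1 to 48.1 *Mrps* reads per 100 *Mrpl* reads in control and 42.8 to 46.6 in CNV d3. The groups overlapped through CNV d3 replicate 4, at 46.6, while the other 5 CNV d3 samples had at most 43.8. The median coefficient of variation within a group was 24.6% in control and 13.1% in CNV d3 for the *Mrpl* genes with a mean of at least 10 normalized counts.

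**Figure D4:**
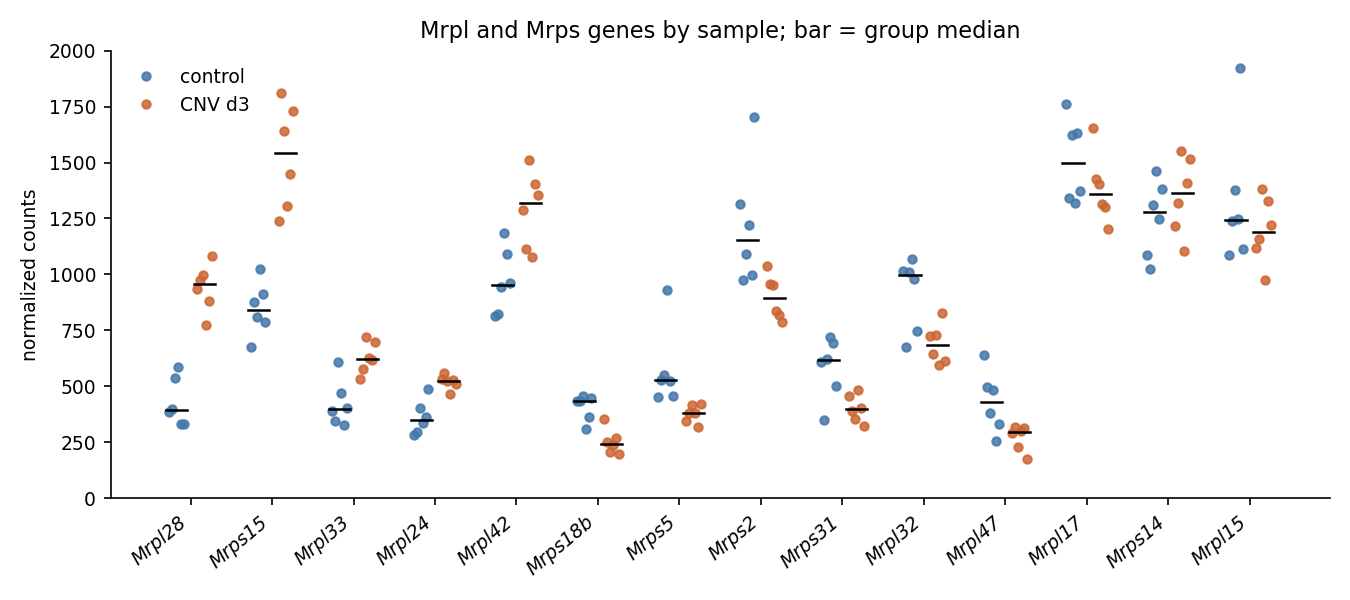
Normalized counts of 14 *Mrpl* and *Mrps* genes in each control and CNV d3 sample (points, n = 6 per group), with the group medians as bars. The groups are apart for *Mrpl28*, *Mrps15* and *Mrps5*, and the single high controls of *Mrps5* (930) and *Mrpl15* (1922) stand out.

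Promoters of 69 of the 78 genes were found in RefSeq (GRCm38.p6), each from 250 bases before to 50 bases after the start of the gene. On either strand, the ETS motif CCGGAAG was in 36.2% of them and in 9.12% of all 27025 promoters. The core of the NRF1 motif, TGCGCA, was in 30.4% and 8.06%, and the YY1 motif AAGATGG in 18.8% and 6.48%. The E-box CACGTG was in 7.25% and 7.24%, and TATAAA in 5.80% and 14.2%. The median GC content was 58.3% and 52.7%. In 64 promoters of genes for cytosolic ribosomal proteins, the 5 motifs were in 39.1%, 18.8%, 14.1%, 7.81% and 10.9%, in the same order. The ETS motif was thus about as frequent there. A match is a description of the letters and not a site. None of the 5 motifs was in the promoters of *Mrpl28* and *Mrps15*, and that of *Mrps18b* held TGCGCA and CCGGAAG (in capitals). Those of *Mrpl33* and *Mrpl24*, which also rose, are not given here. Whether a motif goes with the direction of change was not tested. The promoters of *Mrpl28* and *Mrps18b* are shown as those of the nuclear member that rose most and the nuclear member that fell (*Mrpl28* at chr17:26123253-26123552 on the plus strand, *Mrps18b* at chr17:35916391-35916690 on the minus strand).
Mrpl28: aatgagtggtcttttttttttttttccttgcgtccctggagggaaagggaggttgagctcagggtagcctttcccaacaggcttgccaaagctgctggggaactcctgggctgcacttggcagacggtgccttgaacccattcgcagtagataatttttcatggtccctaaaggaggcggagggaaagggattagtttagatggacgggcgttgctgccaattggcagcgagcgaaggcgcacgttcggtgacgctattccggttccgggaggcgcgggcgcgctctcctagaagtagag
Mrps18b: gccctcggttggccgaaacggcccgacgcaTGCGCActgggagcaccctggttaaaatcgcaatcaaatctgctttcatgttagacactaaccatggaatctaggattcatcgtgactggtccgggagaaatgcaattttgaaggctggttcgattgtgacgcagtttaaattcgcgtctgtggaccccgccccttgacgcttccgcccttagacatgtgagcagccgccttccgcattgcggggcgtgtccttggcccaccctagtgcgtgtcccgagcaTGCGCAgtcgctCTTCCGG

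Of 17 genes for replication and the nucleoid of the mitochondrial genome, 1 rose (5.88%) and 4 fell (23.5%), beside 12.7% and 6.04% of protein-coding genes. *Dna2*, a nuclease and helicase of both the nucleus and mitochondria, was at 22.5, 259 and 551 in control and at 1095, 1256 and 1438 in CNV d3 (log2 fold change 2.62, SE 0.56, limma adjusted p = 0.00581). *Rrm2b* (log2 fold change -0.96) and *Tk2* (-0.63), which supply nucleotides for this genome, fell without overlap of the groups. The other genes that fell, *Dguok* and *Exog*, are named because they complete the count. *Polg*, the polymerase, and *Twnk*, the helicase, had log2 fold changes of 0.56 (limma adjusted p = 0.0842) and -0.18 (limma adjusted p = 0.697). None of 8 transcription genes passed with limma or edgeR, while DESeq2 called 1 that fell and 1 was lower at an unadjusted p under 0.05. *Tfam*, which packs and activates the genome, was at 696, 828 and 1022 in control and at 678, 868 and 944 in CNV d3 (log2 fold change -0.01, SE 0.14). *Polrmt*, the RNA polymerase, also had -0.01 (SE 0.35), and *Tfb2m*, its start factor, had -0.72 (limma adjusted p = 0.116).

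Of 28 genes for processing and stability of the RNA, 2 rose and 1 fell with limma, while edgeR called 1 and 1 and DESeq2 1 and 2. *Rexo2*, a ribonuclease for short RNA, had a log2 fold change of 0.53 (limma adjusted p = 0.0319), and *Trmt10c*, a part of the enzyme that cuts the 5′ ends of mitochondrial tRNAs, had -0.67 (limma adjusted p = 0.0349). *Slirp* also passed, with at most 1.66 normalized counts in any sample, so that no fold change is given. Its partner *Lrpprc*, which keeps mitochondrial mRNAs stable, was at 1334, 1672 and 2414 in control and at 1882, 2266 and 2459 in CNV d3 (log2 fold change 0.32, limma adjusted p = 0.148).

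Of 24 genes for assembly of the mitochondrial ribosome *Ddx28*, an RNA helicase that acts on the large subunit, fell with limma and none rose. DESeq2 called 3 that fell, and at an unadjusted p under 0.05, 4 were lower and 1 higher. *Ddx28* was at 647, 777 and 957 in control and at 300.4, 427 and 469 in CNV d3, without overlap (log2 fold change -0.98, SE 0.15, limma adjusted p = 0.000640). The list's median log2 fold change was -0.25. *Mterf4*, also of this list, lay just beyond the threshold (log2 fold change -0.70, limma adjusted p = 0.05005). Of 14 translation factors *Gfm2*, which recycles the ribosome, fell (1546, 1874 and 1996 against 1020, 1237 and 1480, log2 fold change -0.57, limma adjusted p = 0.00473). The elongation factors *Tufm* and *Gfm1* and the initiation factor *Mtif2* did not pass (log2 fold change 0.17, 0.75 and 0.18, limma adjusted p = 0.534, 0.155 and 0.604). Of 6 genes listed for proteins of the mitochondrial ribosome, or bound to it, without an Mrp symbol, *Aurkaip1* rose (log2 fold change 0.50, limma adjusted p = 0.0259). DESeq2 also called 1 of them that fell. A seventh on this list, *Ict1*, is an older symbol of the member *Mrpl58*. Of 12 regulators of mitochondrial biogenesis *Gabpa*, an ETS factor, rose (log2 fold change 0.45, limma adjusted p = 0.00985) and *Nfe2l2* fell (log2 fold change -0.30, limma adjusted p = 0.0379). For these regulators edgeR called 1 that rose and 0 that fell, and DESeq2 1 and 1. *Ppargc1a* had at most 2.25 normalized counts in control and 0 to 27.7 in CNV d3.

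The cytosolic ribosome and the nuclear part of the respiratory chain differed in their counts from the mitochondrial ribosome. Of 83 genes for cytosolic ribosomal proteins 62 rose (median log2 fold change 0.69) and of 77 nuclear genes for subunits of complexes I to V 29 rose (median 0.42). None of either list fell with limma or edgeR. At an unadjusted p under 0.05, 0 and 1 were lower, and DESeq2 called 0 and 1. *Rpl3* was at 3068, 3275 and 4401 in control and at 6767, 7732 and 8156 in CNV d3 (log2 fold change 1.18, limma adjusted p = 5.15e-06). *Atp5b*, a catalytic subunit of ATP synthase, was at 12317, 13403 and 14412 in control and at 17893, 21572 and 23010 in CNV d3 (log2 fold change 0.66, limma adjusted p = 6.1e-05). *Cox4i1*, a nuclear subunit of complex IV, had a log2 fold change of 0.83 (limma adjusted p = 0.000394), close to that of *mt-Co1*. The median shift of the *Mrpl* and *Mrps* genes in single samples, against the control mean, was -0.11 to 0.19 in control and -0.08 to 0.19 in CNV d3. For the cytosolic ribosomal proteins it was -0.22 to 0.41 and 0.48 to 0.87, without overlap. The difference between the lists was not tested. Cytosolic ribosomal protein genes have many processed copies, with which reads can be shared.

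**Figure D5:**
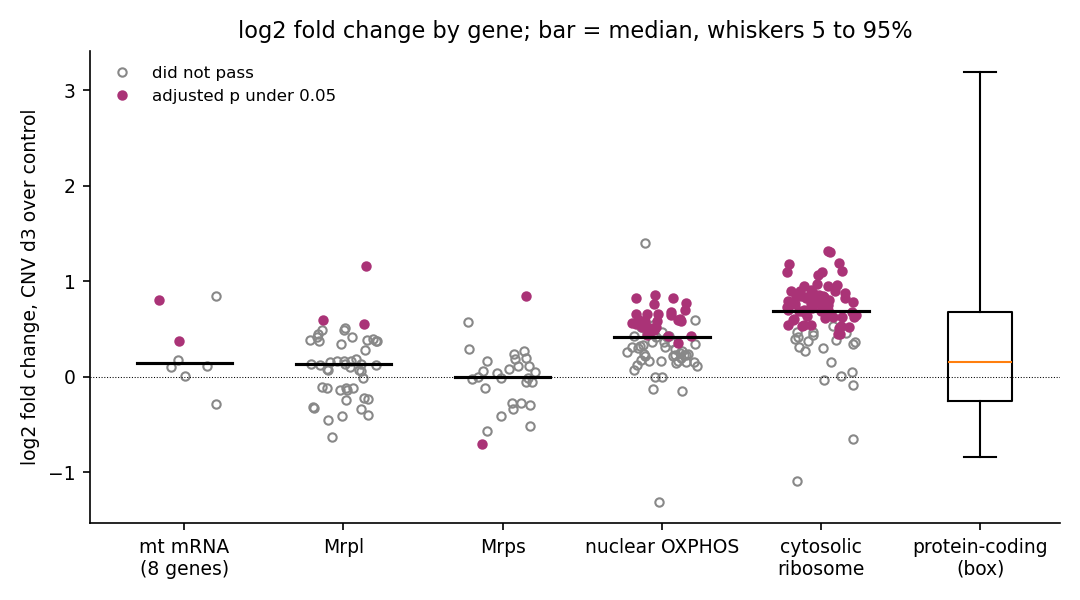
log2 fold change of CNV d3 over control for each gene (points, filled where the limma adjusted p was under 0.05) of the 8 mt- mRNA genes with a mean of at least 10 normalized counts, the *Mrpl* and *Mrps* genes, nuclear genes of oxidative phosphorylation (OXPHOS) and cytosolic ribosomal proteins, with medians as bars. The box gives the quartiles and the 5% and 95% points of 11628 protein-coding genes, whose median was 0.15; the medians of the *Mrpl* and *Mrps* genes (0.13 and -0.002) lay below those of the lists to their right (0.42 and 0.69).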

How the data were processed

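Bulk RNA-seq of 12 samples was used. Per the methods and the submitters' processing notes, the authors mapped 50-base single reads with STAR 2.7.2b to GRCm38.p6 with Gencode M25, merged the 2 runs of a sample, counted reads per gene with featureCounts 1.6.4 at default settings, which do not use strand and leave out reads that map to several places, and removed genes with no reads. The deposited values are a signal, the reads divided by the DESeq2 1.22.2 size factor of the sample. All values of a sample were whole multiples of its smallest value (tolerance 0.01), so reads were recovered. Columns with the authors' group means, log2 fold changes and adjusted p-values were not used. Of the samples, 7 are listed in 2 parts, all 6 controls and CNV d3 replicate 4, and were taken as 1 sample each. Apart from that CNV d3 sample the listing in parts goes with the group, so an effect of it cannot be told apart from that of the laser.

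limma 3.58.1 in R 4.3.3 with a variance trend was run on log2(value + 1) over 27299 genes, with no filter on low values. edgeR 4.0.16 and DESeq2 1.42.0 on the recovered reads were alternatives, as were other scalings, pseudocounts and filters, thinning to equal depth, a replicate block and leaving out each sample. These tests were tried on simulated data. Single genes were also compared by exact permutation of the samples. The floor was 3 reads per sample, which covers counting error only. Annotation came from Gencode M21, which matched all 104 members by identifier, and promoters from RefSeq.

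The members and lists were chosen with earlier results of these data known. Named were all mt- mRNA and rRNA genes, tRNA genes with a group mean of at least 10, and of the *Mrpl* and *Mrps* genes the 5 with the highest mean, the 5 with the smallest p and the 3 with the largest change in each direction and any DEG. Of the other lists the 3 with the smallest p and some genes of known roles were named. *Mrps18a*, *Mrps18c*, *Mrpl53*, *Mrps36*, *Dguok*, *Exog* and *CT010467.1* were named after their values were seen.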

Additional observations from a re-analysis of the deposited data

Results flagged for a closer look

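In 69 groups of 6 samples, 5 had a lowest or highest sample whose gap to the next, divided by the range of the group, was above the 95% point of Dixon's test. Chance alone flags about 1 in 20 groups. CNV d3 replicate 3 had 59.1 normalized counts of *mt-Tc*, where the other CNV d3 samples had 13.8 to 29.6, and CNV d3 replicate 5 had 88.9 of *mt-Nd3*, where the others had 52.8 to 65.2. The 0.831 normalized counts of *mt-Co3* in CNV d3 replicate 6 stand for 1 read, with 0 in the others. Control replicate 5 had 1922 of *Mrpl15*, where the other controls had 1089 to 1377. Control replicate 4 had 929.6 of *Mrps5*, where the others had 451 to 552.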

How the results depend on the processing

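Of the members that passed, *mt-Rnr1* (log2 fold change 1.32 to 1.54), *mt-Rnr2* (0.77 to 1.09), *mt-Co1* (0.74 to 0.95), *Mrpl28* (1.09 to 1.26) and *Mrps15* (0.79 to 0.91) kept direction and call in all 23 other fits, and *mt-Nd5* lost its call in 15. Where 0 mt- genes fell, 1 fell (*mt-Tq*) with the filter on low values, DESeq2, no variance trend and thinned reads, and 0 to 1 when 1 sample was left out. Where 4 *Mrpl* and *Mrps* genes rose and 1 fell, 8 and 3 did so with the filter and 10 and 6 with DESeq2, and 0 fell with edgeR. When 1 sample was left out, 3 to 9 rose (9 without control replicate 3) and 1 to 5 fell (5 without control replicate 2). Where 0 members were DEG, 2 were with the filter, DESeq2 and no variance trend (*mt-Tq* and *mt-Tc* each time), 2 with an absolute log2 fold change above 1 (*mt-Rnr1* and *Mrpl28*), and 0 to 3 when 1 sample was left out (3 without control replicate 3). The filter tests fewer genes, and otherwise the cause was not tested. Without rRNA genes the mean share of the mt- genes was 0.301% and 0.370%.

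Without the 3 samples with the most photoreceptor reads, an alternative chosen after seeing the data, 3 mt- genes rose and 0 fell, 5 *Mrpl* and *Mrps* genes rose and 0 fell, and 1 member (*mt-Rnr1*) was a DEG. With the replicate block, 3 mt- genes and 3 *Mrpl* and *Mrps* genes rose and 0 fell in either set. The samples share only their numbers, since same-numbered samples deviated with correlations of -0.02 to 0.05 and only control replicate 3 correlated best with its own number. The other scalings left the median over all genes at 0.15. The mt- tRNA genes, *mt-Co3*, *mt-Atp6* and *Mrpl53* are limited by depth, with few reads or none.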
